A study of Homo sapiens with 132 samples.

Results

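Afatinib is a small molecule that binds irreversibly to the kinase domains of the HER family of growth factor receptors (EGFR, HER2 and HER4), and 97 of the 19674 protein-coding genes measured were higher after it in every one of 3 gastric cancer cell lines, MKN1, MKN7 and N87 (NCI-N87). A gene was a member where log2((mean CPM with afatinib + 1)/(mean CPM untreated + 1)) at 24 h was at least 0.8 in each of those lines, with CPM the counts scaled to the library total and averaged over 3 replicates. The same value was reached by 369 genes in MKN1, by 899 in MKN7 and by 2200 in N87, and 52 genes were at or below the opposite value in all 3 lines. The members were thus chosen by the CPM of untreated and afatinib-treated cells at 24 h, so that contrast is only described here. Differences are tested in libraries that did not enter the choice, namely those with trastuzumab, with EGF or cetuximab, at 4 h, or of the line Hs746T.

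Poly(A) RNA was sequenced from 4 established lines derived from gastric carcinoma metastases, in 44 conditions with 3 replicates each. MKN1 and Hs746T were untreated, or received the ligand EGF (5 ng/ml), the EGFR antibody cetuximab (Cet, 1 µg/ml), EGF+Cet, the HER2 antibody trastuzumab (Tra, 5 µg/ml), afatinib (Afa, 0.5 µM) or Tra+Afa. MKN7 and N87 were untreated or received Tra, Afa or Tra+Afa, and all conditions were collected at 4 h and 24 h. The reference for afatinib was untreated cells, not cells given its solvent, and Tra+Afa against Tra has the same limit. The labels do not say whether replicates were separate cultures, so p-values measure only the spread between these samples.

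Library totals ran from 25832557 to 69434151 counts with a median of 50725775.5, and 3 counts corresponded to 0.0432 to 0.116 CPM. The epithelial keratin gene KRT8 was abundant in all lines, with medians over libraries from 349 CPM in Hs746T to 11220 CPM in MKN1. The adhesion gene CDH1 was high in MKN7 and N87 (225 and 269 CPM) and low in MKN1 and Hs746T (1.90 and 0.791 CPM). The mesenchymal gene VIM was highest in Hs746T (1587 CPM), with 545 CPM in MKN1, 3.62 CPM in MKN7 and 4.16 CPM in N87. Of the gastric markers, TFF1 and GKN1 had medians of at most 0.986 CPM in every line, TFF2 of at most 3.86 CPM and CLDN18 of at most 3.52 CPM. The gastric mucin gene MUC5AC differed between lines, with medians of 103 CPM in N87 (10.1 to 216 over libraries), 4.42 CPM in MKN1, 0.304 CPM in MKN7 and 0.110 CPM in Hs746T. Of the leukocyte markers, PTPRC had medians of at most 0.392 CPM and CSF1R of at most 1.74 CPM. The endothelial marker PECAM1 had medians of 158 CPM in Hs746T and 10.8 CPM in MKN1, and the other endothelial markers read of at most 1.31 CPM. Of the fibroblast markers, COL1A1 had a median of 518 CPM in Hs746T and LUM of 81.6 CPM in MKN1.

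HER receptors pass their signal through the RAS-MAPK and PI3K-AKT cascades, which drive division and hold FOXO transcription factors out of the nucleus. When these cascades are silenced, FOXO proteins can enter the nucleus and activate genes for cell cycle arrest and for cell death. Epithelial cells that leave the cycle often switch on genes for surface glycoproteins, brush border enzymes and lysosomes, and many epithelial cells also keep a low constitutive level of interferon-inducible defence genes.

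The 97 members were sorted by known function into 6 groups, made with the members in view, and a remainder of 14 genes. Innate immune and interferon-induced genes formed the largest group (20 genes), with the guanylate-binding GTPases GBP2 and GBP4, the receptors TLR1 and TLR3, the inflammatory caspase CASP1, the antigen-presenting molecule MR1 and the butyrophilins BTN3A1, BTN3A2 and BTN3A3, which are recognised by gamma-delta T cells. Mucosal surface and epithelial differentiation genes (16 genes) included the membrane mucins MUC1, MUC4 and MUC16, the histamine-degrading enzyme AOC1 and the tuft cell factor POU2F3. Lipid, steroid and xenobiotic metabolism contributed 12 genes, among them the fatty acid hydroxylases CYP4F3 and CYP4F12, the epoxide hydrolase EPHX2 and the aldehyde dehydrogenase ALDH3B1. Lysosome, vesicle and transport genes (9 genes) included the protease CTSO, the glycoprotein GPNMB and the iron exporter SLC40A1. Signalling, death and transcription genes (13 genes) included the BH3-only protein BMF, which promotes apoptosis by binding BCL2 proteins, the transcription factor FOXO4 and the chromatin factor ARID5B. Matrix, cytoskeleton and cell surface genes (13 genes) included the secreted protein CCDC80, the collagen COL4A5 and the membrane glycoprotein GPM6A.

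Several members lie next to each other in the genome, and 10 neighbouring pairs are within 100 kb in the GENCODE annotation of GRCh38. Such pairs were not counted among other genes, and the families named here were chosen after the members were known. BTN3A2, BTN3A1 and BTN3A3 follow one another on chromosome 6 between 26365159 and 26453415, and all 3 genes of this family that were measurable are members. GBP2 and GBP4 are 30692 bases apart on chromosome 1, CYP4F3 and CYP4F12 are 9932 bases apart on chromosome 19, and TRIM29 and POU2F3 are 51111 bases apart on chromosome 11. C1R and C1RL overlap by 3020 bases and NOXA1 and ENTPD8 by 42 bases. Reads of near-identical relatives (BTN3A1 to BTN3A3, CYP4F3 and CYP4F12, ALPG with ALPP and ALPI) or of overlapping genes may have been split by the counting, whose strand setting is not given in the sources used here, so these genes are uncertain individually.

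Promoters were searched for the core motif of forkhead factors, the protein family of FOXO4, and for the E-box core CACGTG and the AP-1 site TGACTCA, on both strands, from 250 bases before to 50 after the RefSeq start (build GRCh38.p14). The forkhead letters TGTTTAC were found in 4 of the 77 members with a promoter entry (SAMD9L, CYP4F3, ADAMTS13 and FOXO4) and in 3.41% of 27305 promoters. CACGTG was found in 6 of 77 (TRANK1, ALDH3B1, GPM6A, ACSF2, GIMAP2 and ACCS) and in 7.43% of all promoters. TGACTCA was found in 6 of 77 (IQCN, GPNMB, VWA7, C1RL, SYTL1 and LDB3) and in 4.92%. Since only 79.4% of the members had an entry, under the 80% needed, a comparison of these shares is void. The 4 promoters below belong to the members that lead the ranking by their smallest value over the 3 lines and hold a forkhead or E-box core, and are shown because their genes recur in the results. The capitals mark the match (GTAAACA is TGTTTAC read on the other strand). They lie at chr7:93148336-93148635 (minus strand) for SAMD9L, chr3:36945005-36945304 (minus) for TRANK1, chr11:68008297-68008596 (plus) for ALDH3B1 and chr4:176002344-176002643 (minus) for GPM6A.
SAMD9L: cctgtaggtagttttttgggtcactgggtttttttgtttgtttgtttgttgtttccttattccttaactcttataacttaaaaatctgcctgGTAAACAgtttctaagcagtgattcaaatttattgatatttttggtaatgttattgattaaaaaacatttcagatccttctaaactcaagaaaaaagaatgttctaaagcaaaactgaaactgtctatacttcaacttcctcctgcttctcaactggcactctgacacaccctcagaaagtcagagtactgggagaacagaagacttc
TRANK1: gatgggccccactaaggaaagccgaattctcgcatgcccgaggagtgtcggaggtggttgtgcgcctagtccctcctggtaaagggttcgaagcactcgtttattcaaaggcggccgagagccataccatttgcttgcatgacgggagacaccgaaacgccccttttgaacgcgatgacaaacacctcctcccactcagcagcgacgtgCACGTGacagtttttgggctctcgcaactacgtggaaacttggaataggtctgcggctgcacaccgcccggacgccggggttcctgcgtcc
ALDH3B1: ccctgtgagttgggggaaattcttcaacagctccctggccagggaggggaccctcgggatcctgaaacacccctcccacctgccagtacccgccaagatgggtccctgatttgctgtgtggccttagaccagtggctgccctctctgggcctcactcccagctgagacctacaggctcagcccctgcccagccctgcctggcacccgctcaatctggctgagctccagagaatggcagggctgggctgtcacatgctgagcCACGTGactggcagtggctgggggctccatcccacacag
GPM6A: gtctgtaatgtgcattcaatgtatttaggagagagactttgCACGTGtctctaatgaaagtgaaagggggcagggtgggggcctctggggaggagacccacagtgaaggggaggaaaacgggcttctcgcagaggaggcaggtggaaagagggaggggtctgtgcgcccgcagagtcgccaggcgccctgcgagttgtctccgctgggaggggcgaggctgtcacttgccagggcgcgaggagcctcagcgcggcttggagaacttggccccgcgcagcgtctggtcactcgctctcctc

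In the contrast that chose them, the members' median log2 ratio was 0.99 in MKN1, 1.23 in MKN7 and 1.76 in N87, with highest values of 2.35, 2.23 and 4.54. These values describe the choice and are not tested. RARRES3, a phospholipase and acyltransferase induced by retinoic acid and interferon, had the largest smallest value over the lines (1.47). The last members inside the limit were SCIN (0.81), SAMD11 (0.81) and PLEKHB1 (0.80), each by its value in MKN7. Just outside were ABHD4 (0.80 in MKN1 after rounding), MAGED2 (0.80 in MKN1) and PROC (0.80 in MKN7), all under 0.8 before rounding.

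Membership depended on the replicates and the scaling. Without replicate 3 the rule gave 41 genes, of which 39 were among the 97, without replicate 1 it gave 146, including 92 of the 97, and without replicate 2 it gave 134, including 93. With CPM scaled by the trimmed mean of M values (TMM) in place of the library total, 61 genes passed, all of them members. At a limit of 1.0 the rule gave 35 genes.

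Untreated levels at 24 h were modest. The median member had 8.66 CPM in MKN1, 5.16 in MKN7, 10.1 in N87 and 5.48 in Hs746T, and 3, 10, 10 and 24 members were under 1 CPM in these lines. All 97 passed the filter on low counts in MKN1, MKN7 and N87, and 95 passed in Hs746T.

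**Figure D1:**
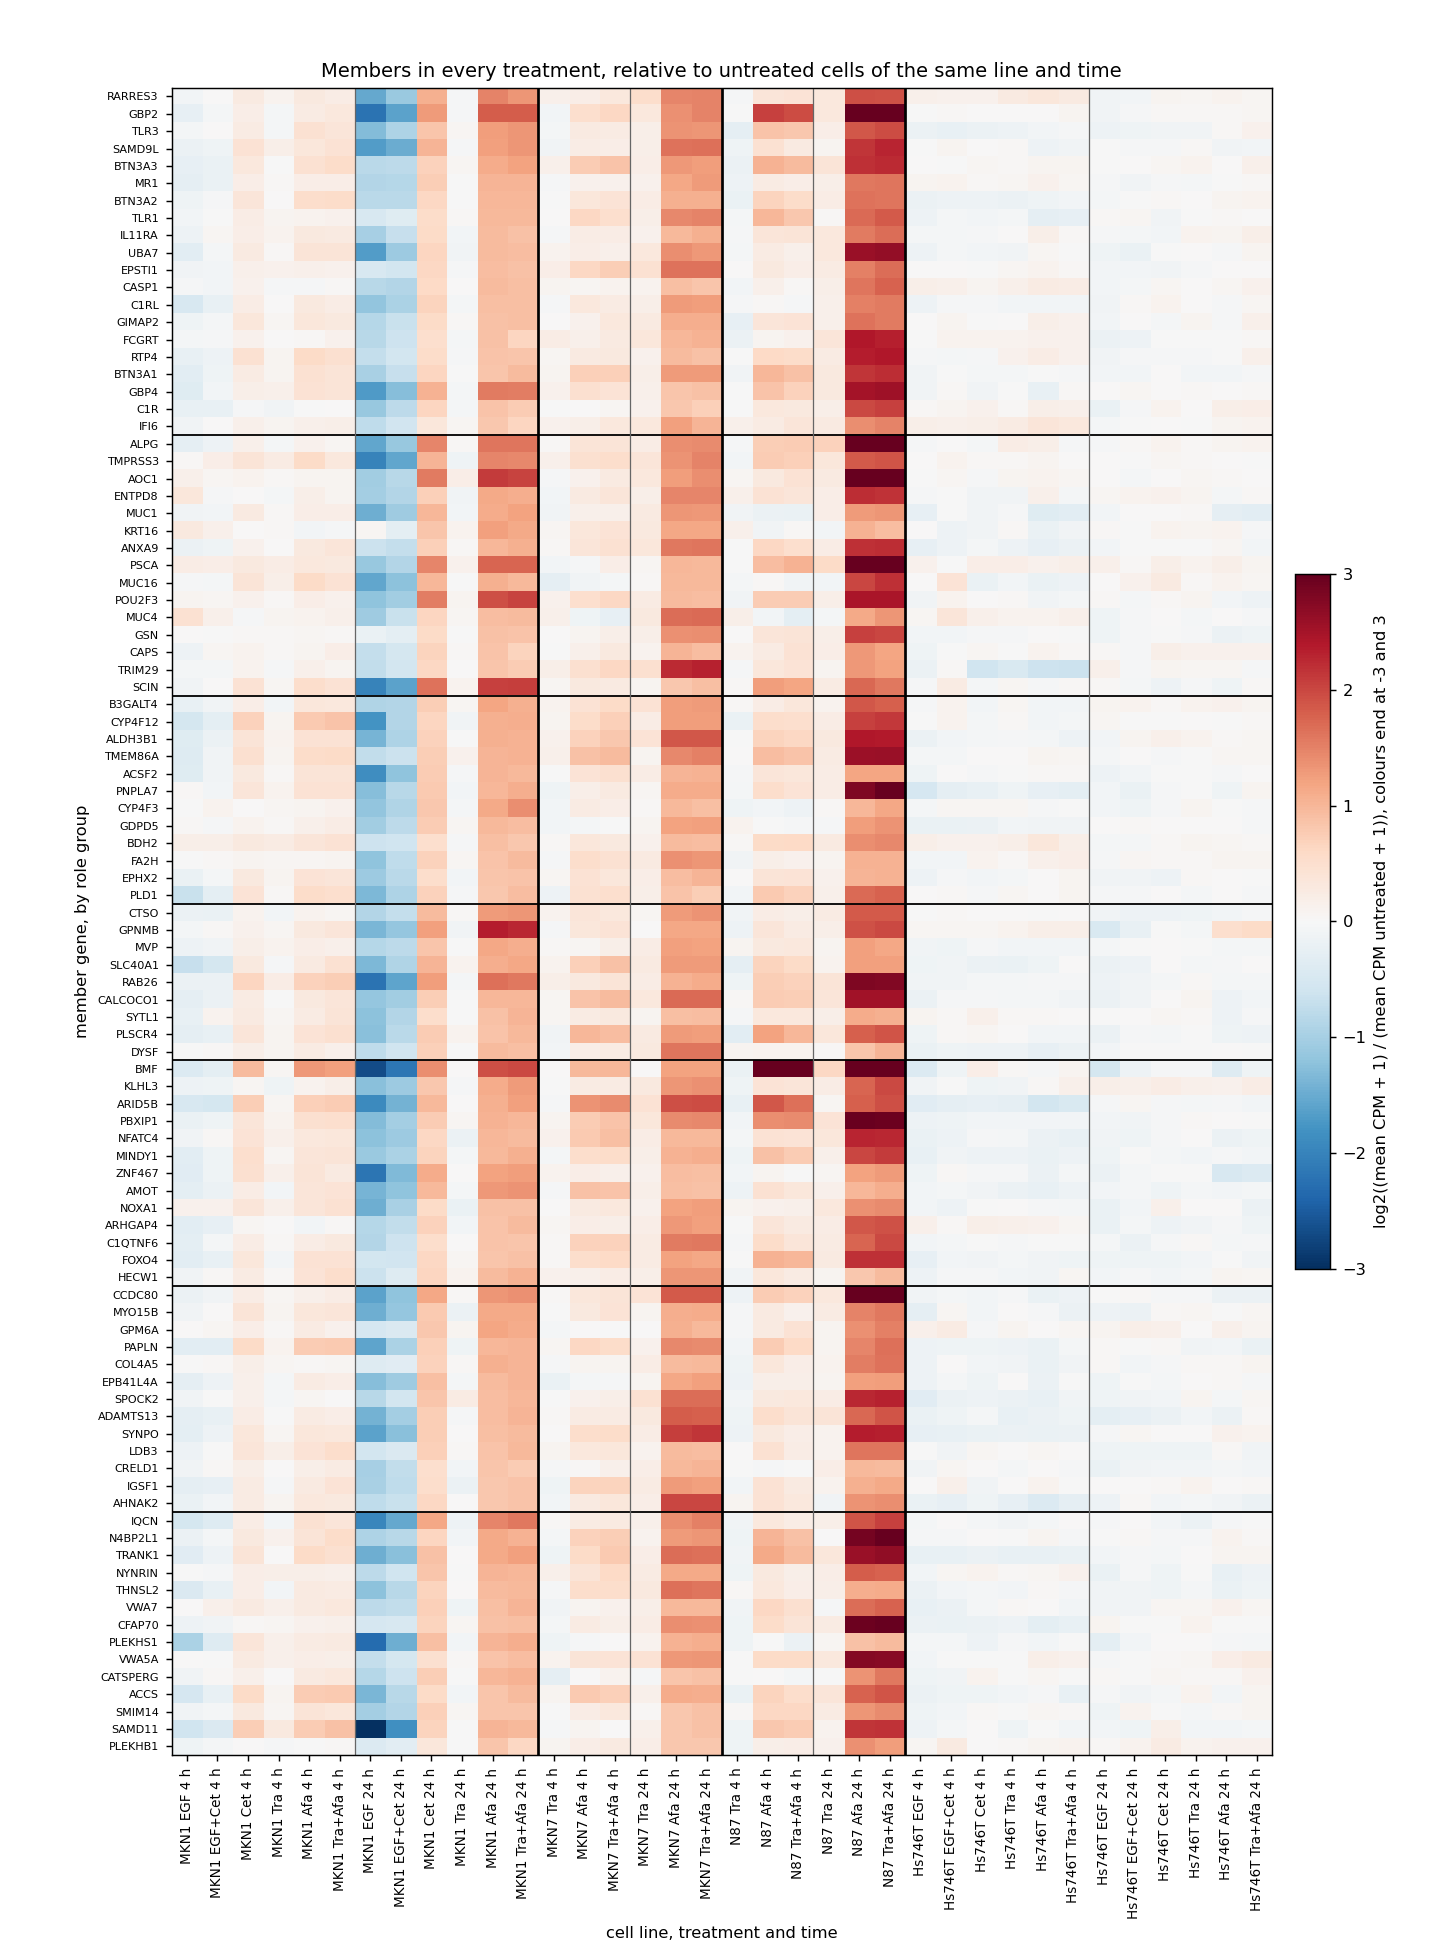
Members (vertical axis, by role group, 1 of them not shown) in each treatment of each line and time (horizontal axis), coloured by log2((mean CPM + 1)/(mean CPM untreated + 1)), means of 3 replicates, with colours ending at -3 and 3. Afa at 24 h in MKN1, MKN7 and N87 is the contrast that chose the genes, with medians over all members of 0.99, 1.23 and 1.76. The MKN1 column with EGF alone at 24 h has a median of -1.12, that with EGF+Cet has -0.84, and no gene reaches 0.8 in Hs746T.

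The question of whether afatinib had a like effect on top of trastuzumab was put to libraries that the choice did not use, Tra+Afa against Tra at 24 h. The members were again higher in all 3 lines. With the study's criteria (adjusted p under 0.05 over all genes tested and log2 fold change past 1; edgeR quasi-likelihood test), 50 members rose in MKN1, 61 in MKN7 and 76 in N87. The background of genes called higher by the same criteria was 3.2%, 7.54% and 17.4% of 19815, 18483 and 19078 genes tested. None fell, against 1.02%, 2.16% and 10.8% of genes called lower. By the adjusted p alone, 92, 97 and 97 members rose, against 12.9%, 22.8% and 31.5% of all genes tested. The members' median log2 fold change was 1.00 in MKN1, 1.13 in MKN7 and 1.56 in N87, while the median over all genes was 0.01, 0.04 and 0.04. In MKN1 the count rested in part on replicate 3, without which 26 members were called. The libraries with Tra+Afa carry the same replicate numbers as those with Afa, so they are other libraries but may not be wholly separate cultures. In MKN1 at 24 h the members' mean log2 CPM in replicate 3 deviated from its group mean by -0.25 untreated and -0.16 with Tra. With Afa and Tra+Afa the deviations were 0.28 and 0.24. The replicate 3 deviations thus had the same signs in the choice and in this comparison, and their share in the count was not tested.

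Without any model, every Tra+Afa library exceeded every Tra library for 96 members in MKN1, 96 in MKN7 and 97 in N87, where the background was 31.1%, 35.7% and 45.9% of all genes. In all 3 lines 92 members rose by the adjusted p, and 5 did in 2 of them (SYNPO, FA2H, TRIM29 and IFI6 among them). Past the fold limit as well, 31 rose in all 3 lines, 39 in 2, 16 in 1 and 11 in none. The share of all genes called in several lines was not counted, so these counts across lines have no background. Because a bulk library gives shares of RNA, a change in the number of cells of a kind and a change in RNA per cell cannot be told apart.

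Each role group holds only members, so its counts are parts of the 92, 97 and 97 that rose by the adjusted p. For every group the background is 12.9%, 22.8% and 31.5% of all genes in MKN1, MKN7 and N87. Among the innate immune genes, all 20 rose by the adjusted p in MKN7 and N87 and 19 in MKN1. In that order the median log2 fold changes were 1.13, 1.70 and 0.96. RARRES3 (ENSG00000133321) in MKN1 stood at 15.7, 14.8 and 8.62 CPM in the Tra libraries and at 40.0, 27.4 and 37.9 CPM with Tra+Afa, and in N87 it went from 2.24, 1.64 and 1.60 to 6.90, 7.17 and 8.51 CPM. No library of one group overlapped the other in either line. The log2 fold changes were 1.29 ± 0.19 (SE, n = 3 libraries a group; edgeR adjusted p = 8.8e-06) in MKN1 and 1.77 ± 0.25 (adjusted p = 2.25e-06, edgeR) in N87. In MKN7 it rose by 0.96 ± 0.24 (edgeR adjusted p = 0.00261), under the fold limit.

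GBP2 (ENSG00000162645) restricts intracellular pathogens. In N87 it was at 18.5, 10.2 and 7.18 CPM with Tra and at 169, 123 and 95.3 CPM with Tra+Afa, in MKN1 at 19.4, 15.6 and 13.3 against 55.1, 48.5 and 76.1 CPM, and in MKN7 at 7.68, 7.51 and 5.63 against 20.2, 17.3 and 13.6 CPM. The lowest Tra+Afa library was above the highest Tra library in all 3 lines. The log2 fold changes were 3.15 ± 0.42 (adjusted p = 1.1e-06, edgeR), 1.75 ± 0.21 (adjusted p = 4.05e-07) and 1.18 ± 0.26 (adjusted p = 0.000809). TLR3, a sensor of double-stranded RNA, rose by 1.35, 1.33 and 1.55 in MKN1, MKN7 and N87 on the log2 scale. SAMD9L, an antiviral factor, rose by 1.26, 1.60 and 2.02, and BTN3A3 by 1.15, 1.01 and 1.69. IFI6, an interferon-stimulated mitochondrial protein, was the weakest of the group, with 0.60 in MKN7 (adjusted p = 0.0349), 0.98 in N87 (adjusted p = 0.0101) and 0.50 in MKN1 (adjusted p = 0.0762, edgeR).

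All 16 mucosal genes rose by the adjusted p in MKN7 and N87 and 14 in MKN1, with medians of 1.18, 1.66 and 1.12. ALPG (ENSG00000163286), the placental-like alkaline phosphatase of germ cells, stood at 134, 64.6 and 65.3 CPM in the N87 Tra libraries and at 1287, 899 and 895 CPM with Tra+Afa. In MKN1 it went from 12.7, 13.8 and 12.1 to 30.9, 28.3 and 61.9 CPM and in MKN7 from 14.5, 8.67 and 7.23 to 31.8, 21.3 and 20.3 CPM. The groups did not overlap in any of these lines, and the log2 fold changes were 3.26 ± 0.45 (adjusted p = 2.07e-06, edgeR) in N87, 1.5 ± 0.30 (adjusted p = 0.000303) in MKN1 and 1.16 ± 0.29 (adjusted p = 0.00237) in MKN7. TMPRSS3 (ENSG00000160183), a transmembrane serine protease, went from 6.76, 6.51 and 3.59 to 17.8, 17.3 and 20.7 CPM in MKN1, from 3.83, 3.24 and 2.13 to 9.39, 8.23 and 5.74 CPM in MKN7, and from 27.8, 25.3 and 23.4 to 83.7, 72.7 and 70.6 CPM in N87. It rose by 1.58, 1.23 and 1.29 in these lines. AOC1 rose by 1.96, 1.16 and 2.54, and the nucleotidase ENTPD8 by 1.55, 1.53 and 2.10.

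MUC1, the transmembrane mucin of glandular epithelia, stood at 83.9, 72.6 and 41.8 CPM with Tra and at 146, 146 and 111 CPM with Tra+Afa in MKN7. In MKN1 the values were 22.7, 18.6 and 20.5 against 46.1, 46.5 and 62.7 CPM, and in N87 10.8, 14.6 and 12.8 against 24.8, 35.7 and 27.1 CPM. The treated libraries were the higher ones throughout, and MUC1 rose by 1.18 ± 0.27 (adjusted p = 0.00126, edgeR) in MKN1, by 0.91 ± 0.29 (adjusted p = 0.0145) in MKN7 and by 0.92 ± 0.19 (adjusted p = 0.000216) in N87.

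Lipid and xenobiotic genes had the lowest medians, 0.85 in MKN1, 0.93 in MKN7 and 1.24 in N87. Of 12 genes, 11, 12 and 12 rose by the adjusted p, and past the fold limit 4, 4 and 7 (3.2%, 7.54% and 17.4% of all genes). ALDH3B1, which oxidises lipid-derived aldehydes, rose by 0.93, 1.35 and 1.82 on the log2 scale in MKN1, MKN7 and N87, and CYP4F12 by 1.07, 0.98 and 1.66. ACSF2, an acyl-CoA synthetase, rose by 0.86, 0.72 and 0.67 and so stayed under the fold limit in each line.

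All 9 lysosome, vesicle and transport genes rose by the adjusted p in each line, with medians of 0.97, 1.13 and 1.42. CTSO, a lysosomal cysteine protease, was at 2.48, 2.59 and 2.16 CPM with Tra and 7.30, 6.06 and 8.58 CPM with Tra+Afa in MKN1, at 3.04, 3.82 and 2.54 against 8.90, 9.43 and 9.36 CPM in MKN7, and at 12.6, 11.1 and 12.9 against 37.5, 35.9 and 43.8 CPM in N87. Its change was of nearly one size, 1.45 ± 0.18 (adjusted p = 7.83e-07, edgeR), 1.45 ± 0.13 (adjusted p = 6.86e-08) and 1.40 ± 0.15 (adjusted p = 4.61e-08). GPNMB had the largest change of all members in MKN1. It went from 5.996, 6.44 and 3.80 to 32.7, 30.1 and 33.5 CPM there, a log2 fold change of 2.42 ± 0.22 (adjusted p = 8.83e-09, edgeR), and rose by 1.13 in MKN7 and 2.29 in N87. SLC40A1 rose by 1.04, 1.15 and 0.91, and MVP, the main protein of vault particles, by 0.97, 0.89 and 0.80.

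Of the signalling, death and transcription genes, 13 of 13 rose by the adjusted p in each line, with medians of 1.13 in MKN1, 1.05 in MKN7 and 1.69 in N87. BMF had the largest change of all members in N87. Its Tra libraries held 7.27, 7.22 and 5.51 CPM and its Tra+Afa libraries 119, 116 and 102 CPM in N87, a log2 fold change of 3.79 ± 0.12 (adjusted p = 1.35e-15, edgeR). In MKN1, BMF was at 23.8, 15.6 and 7.15 CPM with Tra and 67.2, 60.2 and 63.8 CPM with Tra+Afa (1.89 ± 0.30, edgeR adjusted p = 1.97e-05), and in MKN7 at 4.00, 4.49 and 3.58 against 11.96, 10.2 and 9.70 CPM (1.29 ± 0.14, adjusted p = 5.69e-07). FOXO4 went from 14.8, 12 and 11.9 to 23.4, 21.0 and 25.4 CPM in MKN1, from 9.85, 10.3 and 7.11 to 19.4, 21.1 and 13.8 CPM in MKN7, and from 17.1, 14.6 and 11.2 to 61.6, 58.4 and 49.99 CPM in N87. No treated library fell into the range of the Tra libraries for either gene, and FOXO4 rose by 0.71, 0.88 and 1.71.

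Matrix, cytoskeleton and surface genes had medians of 0.98, 1.33 and 1.30, and 12, 13 and 13 of 13 rose by the adjusted p. CCDC80 (ENSG00000091986) was at 95.2, 66.7 and 47.8 CPM with Tra and 202, 150 and 188 CPM with Tra+Afa in MKN1, at 96.6, 93.3 and 41.0 against 223, 239 and 164 CPM in MKN7, and at 47.4, 19.0 and 17.8 against 342, 133 and 122 CPM in N87. The N87 libraries of replicate 1 were higher than the others in both groups, and the log2 fold change there was 2.54 ± 0.64 (adjusted p = 0.00173, edgeR), beside 1.22 in MKN1 and 1.33 in MKN7. GPM6A rose from under 1 CPM in each line, by 1.64, 2.14 and 2.01.

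Of the remaining 14 genes, 14 rose by the adjusted p in each line. IQCN (ENSG00000130518), an IQ motif protein, went from 6.63, 4.34 and 4.02 to 17.4, 17.4 and 21.3 CPM in MKN1, from 0.538, 0.673 and 0.417 to 2.99, 3.18 and 2.63 CPM in MKN7, and from 2.66, 1.99 and 1.25 to 12.2, 11.4 and 6.14 CPM in N87. Its change of 2.31 ± 0.34 was the largest of all members in MKN7 (adjusted p = 1.63e-05, edgeR), and in MKN1 and N87 it rose by 1.76 and 2.06. TRANK1 rose by 1.14, 1.53 and 2.13.

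**Figure D2:**
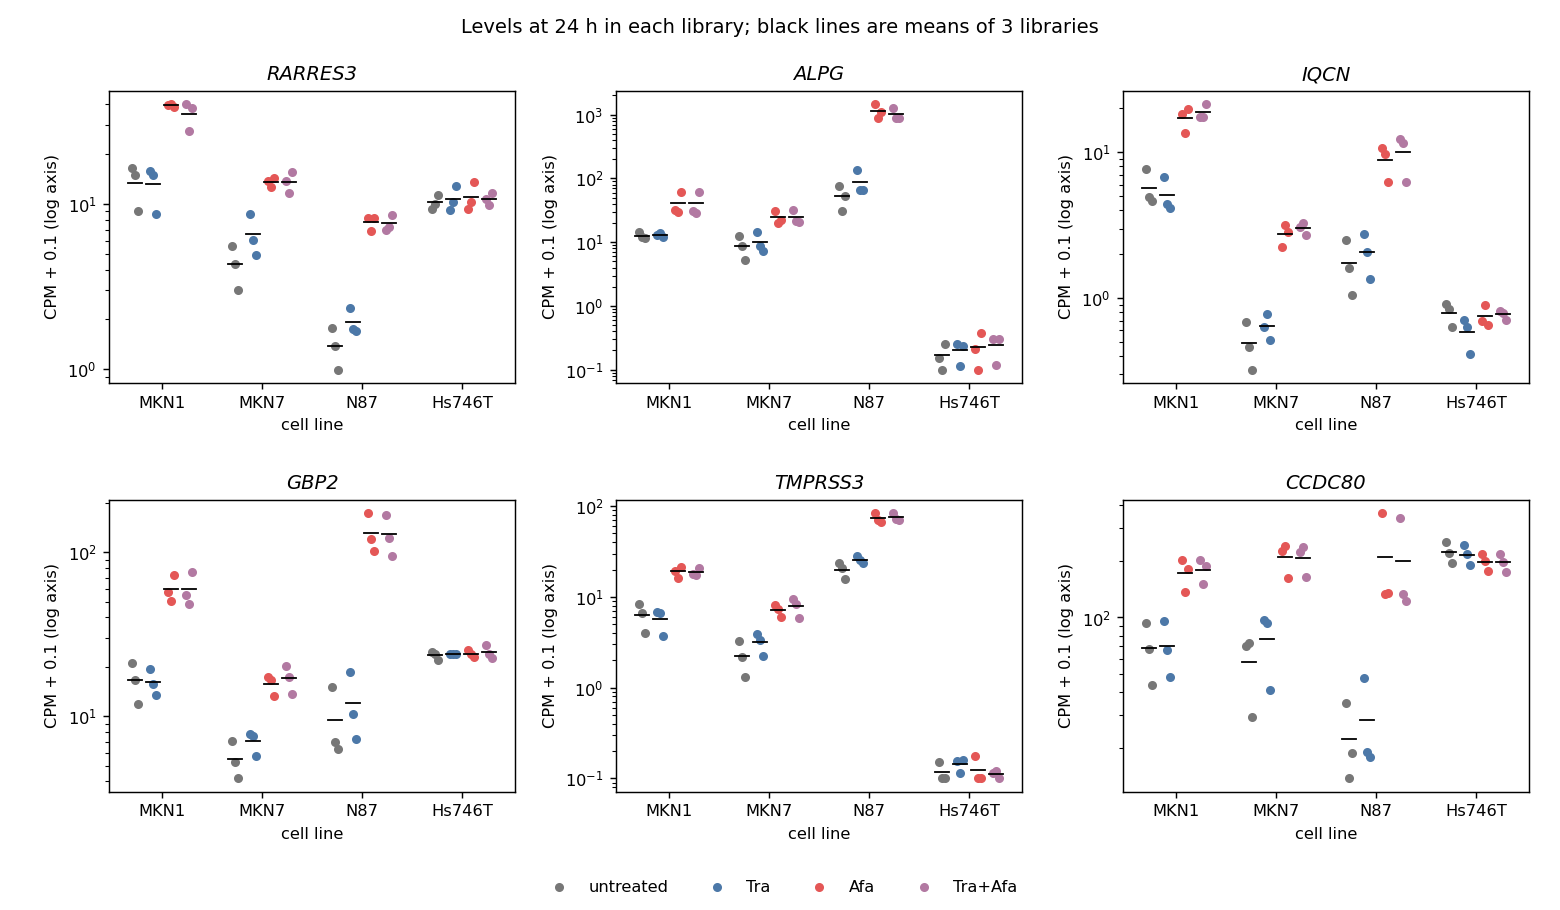
CPM + 0.1 at 24 h on a log axis for the 6 members ranked first, in each library of each line, with points coloured by treatment and black lines at the mean of 3 libraries. In MKN1, MKN7 and N87 the Afa and Tra+Afa points sit above the untreated and Tra points for each gene, for example 895 to 1287 CPM of ALPG with Tra+Afa in N87 against 64.6 to 134 with Tra, while in Hs746T the 4 treatments lie together.

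The responses differed in size between lines. The largest of the 3 log2 fold changes fell in N87 for 64 members, in MKN1 for 17 and in MKN7 for 16. This order was not counted over all genes. N87 also had the largest share of all genes called higher past both criteria, 17.4% against 7.54% in MKN7 and 3.2% in MKN1. Tested as an interaction in a joint fit of all libraries, the change was larger in N87 than in MKN1 for 18 members past the fold limit (6.18% of 22832 genes) and larger than in MKN7 for 19 (4.09%), and smaller for none. By the adjusted p alone the counts were 27 (9.92%) and 26 (7.37%), or 53 (17.8% of all genes) and 48 (15%) with the replicate number as a block. Without replicate 2 the counts past both criteria were 10 and 10. N4BP2L1 differed by 2.01 ± 0.32 between N87 and MKN1 (edgeR adjusted p = 3.34e-07) and by 2.20 ± 0.31 between N87 and MKN7 (adjusted p = 1.53e-08). For BMF the differences were 1.90 ± 0.57 (adjusted p = 0.00712, edgeR) and 2.52 ± 0.58 (adjusted p = 0.000543), and for TMEM86A, a lysoplasmalogenase, the N87 to MKN1 difference was 1.98 ± 0.19 (adjusted p = 5.4e-15). Between MKN7 and MKN1 only GPNMB differed past the limits, by -1.30 ± 0.40 (edgeR adjusted p = 0.0484), lower in MKN7, with 0.88% of all genes called in that direction. That call was lost without replicate 2 and without replicate 3, and with the replicate number as a block 3 members were higher in MKN7 and 2 lower, against 2.51% and 1.69% of all genes.

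Other genes of the pathways were read from lists that hold few members (FOXO4, BMF, CTSO, MUC1, IFI6 and ACSF2, 1 list each). In Tra+Afa against Tra at 24 h the background by the adjusted p was 12.9%, 22.8% and 31.5% of all genes higher and 14.9%, 21.6% and 30.3% lower in MKN1, MKN7 and N87, and the counts of each list are to be read against these shares. Of 32 FOXO factors and target genes, 15, 19 and 23 rose by the adjusted p, with medians of 0.36, 0.40 and 0.82, and 0, 4 and 3 fell. Beyond FOXO4, 10 of them rose in all 3 lines, among them the death ligand TNFSF10 (1.34, 1.47 and 3.53), the cyclin CCNG2 (0.53, 0.53 and 2.28), the transcription factor KLF9 (0.44, 0.47 and 0.83) and the BH3-only gene BCL2L11 (0.25, 0.49 and 0.74). In the list of 16 BH3-only and other BCL2 family genes, BCL2L11 alone rose in all 3 lines beside the member BMF. In that list 5 genes fell in all 3 lines, namely BCL2, BCL2L1, BID, MCL1 and PMAIP1. Of the antigen presentation and interferon list, 12 of 31, 11 of 31 and 15 of 29 genes rose and none fell by the adjusted p, where the background was 12.9%, 22.8% and 31.5% higher. MX1, STAT2, PSMB10 and NLRC5 rose in all 3 lines, with 0.64, 0.90 and 1.68 for STAT2, a transducer of interferon signals. ISG15, in the same list, was at -0.03, 0.28 and -0.10 and did not pass the test in any of the 3 lines. For counts over all 3 lines, here and in the lists below, the share of all genes was not computed.

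Lysosome and autophagy genes rose for 22 of 53, 24 of 53 and 25 of 52 genes and fell for 1, 3 and 10, beside 12.9%, 22.8% and 31.5% of all genes higher and 14.9%, 21.6% and 30.3% lower. CTSS, a cathepsin like CTSO, rose by 1.37, 0.47 and 1.66. It was among 13 genes of this list, beside the member CTSO, that rose in all 3 lines. Another cathepsin gene, CTSZ, was the only gene of the list that fell in all 3. In the list of gut epithelial differentiation, 10 of 40, 15 of 32 and 20 of 44 rose and 4, 5 and 7 fell against the same background, and CDX2, the intestinal homeobox factor, was at 0.41, 1.12 and 1.23. Beside the member MUC1, 3 genes of this list were tabulated as higher in all 3 lines (CDX2, CLDN18 and PDZK1), and the gastric marker TFF2 fell in all 3. In fatty acid oxidation the counts were 11 of 31, 9 of 29 and 9 of 31 higher and 2, 7 and 9 lower, which in N87 is near the background in both directions (31.5% and 30.3%). As reference, 16, 17 and 17 of 18 MAPK output genes fell, with medians of -1.74, -2.08 and -2.16, and 33 of 40, 39 of 39 and 39 of 39 S phase genes fell, with medians of -0.43, -0.70 and -2.29. The S phase median thus moved most in N87, as did the members' median, and the part of the cell cycle in the members' change was not tested.

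At 4 h fewer members passed the test, and their changes were smaller. In Afa against untreated at 4 h, where no library entered the choice, 2 members rose past both criteria in MKN1, 6 in MKN7 and 13 in N87, against 0.242%, 1.81% and 2.03% of all genes, and none fell. By the adjusted p alone the counts were 9, 29 and 38, against 1.27%, 10.1% and 9.06%, and with the replicate number as a block they were 29, 46 and 68, against 5.59%, 17.7% and 16.3%. The medians were 0.30, 0.36 and 0.46. In MKN1, leaving out replicate 1 gave 0 calls past both criteria and leaving out replicate 3 gave 1, and in MKN7 leaving out replicate 2 gave 3. Every Afa library exceeded every untreated library for 38, 51 and 56 members, against 18.1%, 22.4% and 21.8% of all genes.

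The share of all genes called in several lines at 4 h was not counted. BMF was the only member past both criteria in all 3 lines at that time. In N87 it stood at 2.66, 2.59 and 3.26 CPM untreated and at 39.0, 33.7 and 35.2 CPM with Afa, in MKN7 at 3.67, 3.26 and 2.65 against 6.87, 6.59 and 8.14 CPM, and in MKN1 at 1.45, 1.88 and 1.77 against 4.69, 4.87 and 7.40 CPM. The groups did not overlap, and the log2 fold changes were 3.59 ± 0.12 (adjusted p = 1.96e-14, edgeR), 1.10 ± 0.14 (adjusted p = 9.96e-06) and 1.64 ± 0.35 (adjusted p = 0.0043). The MKN1 call was lost without replicate 1 (adjusted p = 0.067, edgeR) and without replicate 2 (adjusted p = 0.086). In Hs746T the values were 8.61, 3.64 and 3.36 CPM untreated and 7.88, 3.58 and 3.66 CPM with Afa.

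ARID5B, PLSCR4 and RTP4 passed both criteria in 2 lines at 4 h. ARID5B went from 20.8, 15.1 and 14.1 to 70.1, 63.9 and 56.5 CPM in N87 (1.87 ± 0.14, edgeR adjusted p = 4.73e-09) and rose by 1.54 in MKN7. PLSCR4, a phospholipid scramblase relative, rose by 1.38 in MKN7 and 1.46 in N87. RTP4, an interferon-inducible chaperone of receptors, rose by 1.10 in MKN1 and 1.18 in N87, from under 1 CPM in each. FOXO4 passed the adjusted p in all 3 lines with changes of 0.42, 0.51 and 1.07. In N87 GBP2 was already at 46.8, 29.5 and 25.2 CPM against 10.9, 5.77 and 5.75 CPM (2.12 ± 0.41, edgeR adjusted p = 0.000667). By the adjusted p, 2, 8 and 6 of 13 signalling genes were higher at 4 h in MKN1, MKN7 and N87, and 0, 2 and 3 of 16 mucosal genes, where 1.27%, 10.1% and 9.06% of all genes were. The difference between the groups was not tested.

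Tra+Afa against Tra at 4 h gave similar numbers, with 1, 6 and 16 members higher past both criteria in MKN1, MKN7 and N87 (0.136%, 1.75% and 2.36% of all genes). Counted by the adjusted p, 8, 29 and 41 were higher (0.903%, 9.93% and 9.51%), and 20, 52 and 68 with the block (4.3%, 18.8% and 17.1%). The 1 member in MKN1 was BMF, and leaving out replicate 1 or replicate 2 lost it. In MKN7 the count without replicate 1 was 2.

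The increase from 4 h to 24 h was itself tested for Tra+Afa against Tra. The change was larger at 24 h for 13 members in MKN1, 15 in MKN7 and 45 in N87 past both criteria (0.641%, 1.09% and 7.68% of all genes) and smaller for none, with median differences of 0.73, 0.67 and 1.08 on the log2 scale. By the adjusted p alone 19, 32 and 68 were larger (1.73%, 3.7% and 14.1%). In MKN7 and N87 and at 4 h in MKN1 the replicate numbers pair the libraries, and with the block the counts past both criteria were 24 in MKN1 (1.35% of all genes) and 23 in MKN7 (2.18%), and by the adjusted p 67 (8.33%) and 71 (12.2%). In MKN1 the count was 0, 7 and 3 without replicates 1, 2 and 3, and in MKN7 9, 6 and 9.

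The largest gains between the times came from different role groups. In MKN1 GPNMB gained 2.08 ± 0.32 (adjusted p = 0.000462, edgeR) and AOC1 1.96 ± 0.36 (adjusted p = 0.00187), while POU2F3, at 1.91 ± 0.62, did not pass the test (adjusted p = 0.0763). GPM6A (2.02 ± 0.54, edgeR adjusted p = 0.019), MUC4 (1.81 ± 0.32, adjusted p = 0.000967) and IQCN (1.76 ± 0.51, adjusted p = 0.0322) gained most in MKN7. In N87 the largest gains that passed the test were those of ALPG (2.50 ± 0.60, edgeR adjusted p = 0.0027) and CFAP70, a protein of the ciliary axoneme (2.29 ± 0.23, adjusted p = 1.37e-07), and MUC16, at 2.45 ± 1.06, did not pass it (adjusted p = 0.0809). The smallest differences were 0.18 for FOXO4 in MKN1, -0.42 for PLSCR4 in MKN7 and -0.23 for ARID5B in N87. BMF in N87 had the same log2 fold change of 3.79 at both times.

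**Figure D3:**
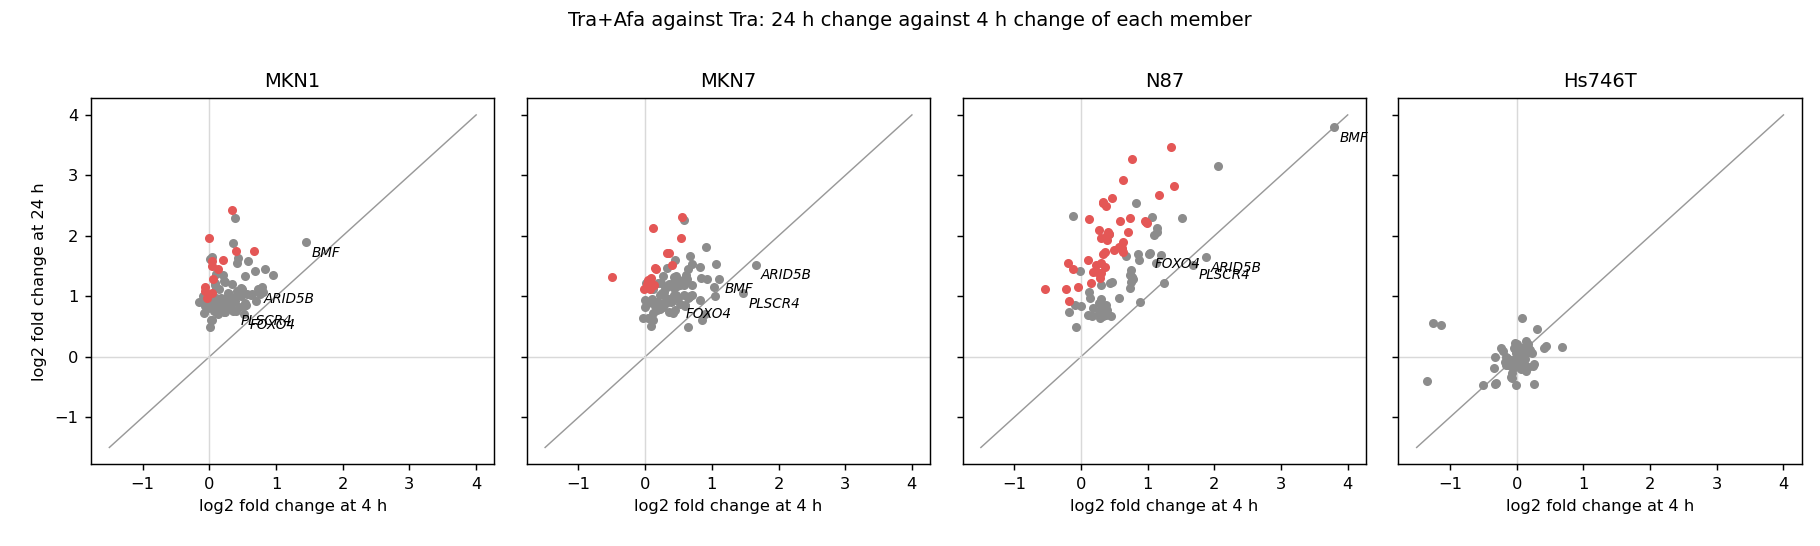
Log2 fold change of each member in Tra+Afa against Tra at 24 h (vertical axis) against that at 4 h (horizontal axis), 1 panel a line, with the line of equal change in grey and the members whose change was larger at 24 h past both criteria in red (13 in MKN1, 15 in MKN7, 45 in N87). BMF lies near the line of equal change in N87, most members lie above it in the first 3 panels, and the Hs746T points scatter about 0.

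**Figure D4:**
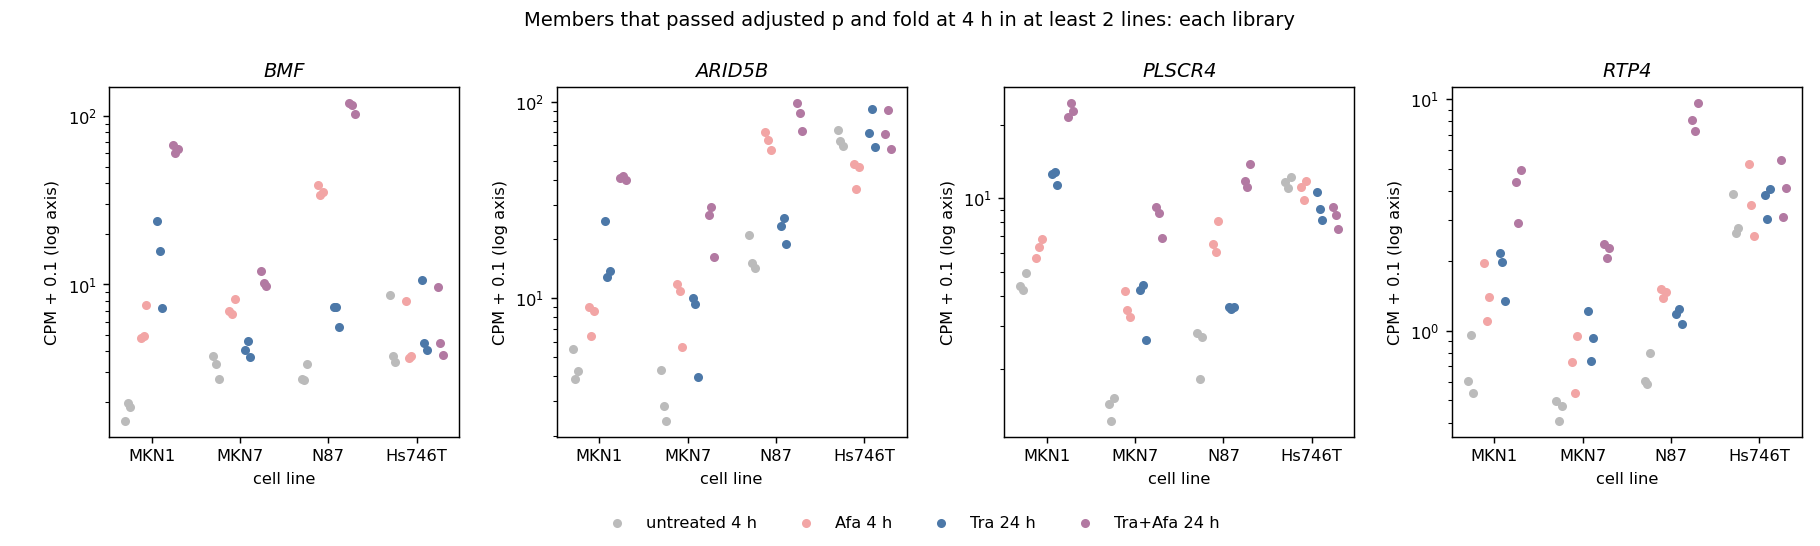
CPM + 0.1 on a log axis for BMF, ARID5B, PLSCR4 and RTP4 in each library of untreated and Afa cells at 4 h and of Tra and Tra+Afa cells at 24 h. BMF in N87 stands at 33.7 to 39.0 CPM with Afa at 4 h and 102 to 119 CPM with Tra+Afa at 24 h, and in Hs746T treated and reference points lie together.

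Members were also higher at 24 h than at 4 h without afatinib, with the largest median in MKN1. In the MKN1 Tra libraries every 24 h value exceeded every 4 h value for 87 members, against 32.2% of all genes, and the median log2((mean CPM at 24 h + 1)/(mean CPM at 4 h + 1)) was 0.99, against 0.10 over the 11105 protein-coding genes expressed highly enough to be chosen. The counts were 65 in MKN7 (26.6%), 49 in N87 (16.4%) and 13 of 95 in Hs746T (6.71%), with medians of 0.53, 0.42 and 0.06. This comparison was chosen after the data were seen and has no other test. BMF in MKN1 went from 1.34, 2.19 and 1.96 CPM at 4 h to 23.8, 15.6 and 7.15 CPM at 24 h with Tra alone, and SAMD11 from 12.9, 10.5 and 15.6 to 69.6, 70.0 and 54.7 CPM. With EGF the median 24 h to 4 h ratio in MKN1 was 0.09, and SAMD11 stood at 6.31, 5.46 and 7.89 CPM at 4 h and 7.10, 5.96 and 8.27 CPM at 24 h.

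EGF and cetuximab were applied to MKN1, which allowed the members to be read under receptor activation and under an antibody against EGFR alone. At 24 h the untreated libraries had entered the choice, so EGF and Cet were set against Tra. These comparisons and Tra+Afa against Tra share the 3 Tra libraries and are given side by side only. With EGF 64 members fell past both criteria (5.84% of all genes) and none rose, and by the adjusted p 90 fell (17.7%). Every EGF library was below every Tra library for 93 members, against 34% of all genes, and the median log2 fold change was -1.27. With Cet 22 members rose (1.1% of all genes), 78 by the adjusted p alone (5.44%), and none fell. Every Cet library was above every Tra library for 93 members, against 21.4%, and the median was 0.72. Without replicate 3 the count with Cet was 10. The members' mean log2 CPM in that replicate deviated from its group mean by 0.18 with Cet and -0.16 with Tra.

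POU2F3 had the largest change in both comparisons. It stood at 2.27, 1.69 and 1.41 CPM with Tra, at 0.117, 0.101 and 0.224 CPM with EGF and at 6.87, 5.32 and 7.91 CPM with Cet, beside 10.1, 7.31 and 11.7 CPM with Tra+Afa. The 3 ranges with EGF, Tra and Cet did not overlap, with the EGF libraries close to the 3-count floor. The log2 fold changes against Tra were -3.40 ± 0.46 with EGF (edgeR adjusted p = 5.99e-07) and 1.81 ± 0.32 with Cet (adjusted p = 0.000393). BMF with EGF was at 1.52, 1.79 and 1.32 CPM and fell by 3.15 on the log2 scale, and with Cet it was at 45.6, 42.9 and 38.4 CPM. SAMD11 fell by 3.01 with EGF. AOC1 and the actin-severing protein SCIN rose by 1.51 and 1.48 with Cet.

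With EGF 7 members did not pass the test, namely KRT16, GSN, COL4A5, EPSTI1, TRIM29, AHNAK2 and PLEKHB1. The log2 fold changes of the last 5 were -0.32, -0.51, -0.56, -0.60 and -0.74, with edgeR adjusted p from 0.056 to 0.382. The stress keratin KRT16 was at 58.9, 71.6 and 96.8 CPM with EGF and 72.5, 67.9 and 95.0 CPM with Tra, and the actin-severing protein GSN at 101, 92.3 and 138 against 125, 119 and 137 CPM. These ranges overlapped, with log2 fold changes of 0.13 and -0.03 that did not pass the test. IFI6 did not pass it with Cet (0.21 ± 0.21, edgeR adjusted p = 0.563).

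EGF combined with cetuximab stayed on the EGF side. At 24 h EGF+Cet against EGF raised 1 member past both criteria, SAMD11, from 7.10, 5.96 and 8.27 to 13.7, 19.9 and 19.2 CPM (1.23 ± 0.19, edgeR adjusted p = 0.000566; 0.0353% of all genes), and 2 by the adjusted p alone (0.212%), or 21 with the block (3.55%). The median was 0.27. The count was 0 without replicate 1, 0 without replicate 2 and 2 without replicate 3. Relative to untreated cells at 24 h, whose libraries chose the members, the medians in MKN1 were -1.12 with EGF, -0.84 with EGF+Cet, 0.72 with Cet, -0.01 with Tra, 0.99 with Afa and 1.01 with Tra+Afa. On the same scale Tra alone had medians of 0.19 in MKN7 and 0.19 in N87, with 96 and 89 members above 0.

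At 4 h in MKN1 EGF against untreated lowered 2 members past both criteria (0.247% of all genes), IQCN by -1.13 (edgeR adjusted p = 0.00402) and the PH domain protein PLEKHS1 by -1.08 (adjusted p = 5.42e-06), and 4 by the adjusted p alone (2.45%), or 13 with the block (7.18%). PLEKHS1 went from 6.19, 6.44 and 4.90 to 2.62, 2.91 and 2.15 CPM, and IQCN from 1.501, 0.884 and 1.21 to 0.533, 0.470 and 0.538 CPM. Without replicate 3, 1 of these calls was left. Cet against untreated at 4 h raised 0 members past both criteria in edgeR, where the background was 0.0757%, and 1 by the adjusted p alone (0.288%). In this comparison 26 members and 10.7% of all genes were at an unadjusted p under 0.05. DESeq2 called 1 member past both criteria (0.0858% of all genes), and the block called 1 (0.217%), or 18 by the adjusted p alone (2.79%). EGF+Cet against EGF at 4 h gave 0 calls past both criteria in edgeR and in DESeq2, with 4 members (and 6.83% of all genes) at an unadjusted p under 0.05 and PLEKHS1 alone called by the adjusted p (0.66 ± 0.15, adjusted p = 0.0264, edgeR; background 0.0807%).

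**Figure D5:**
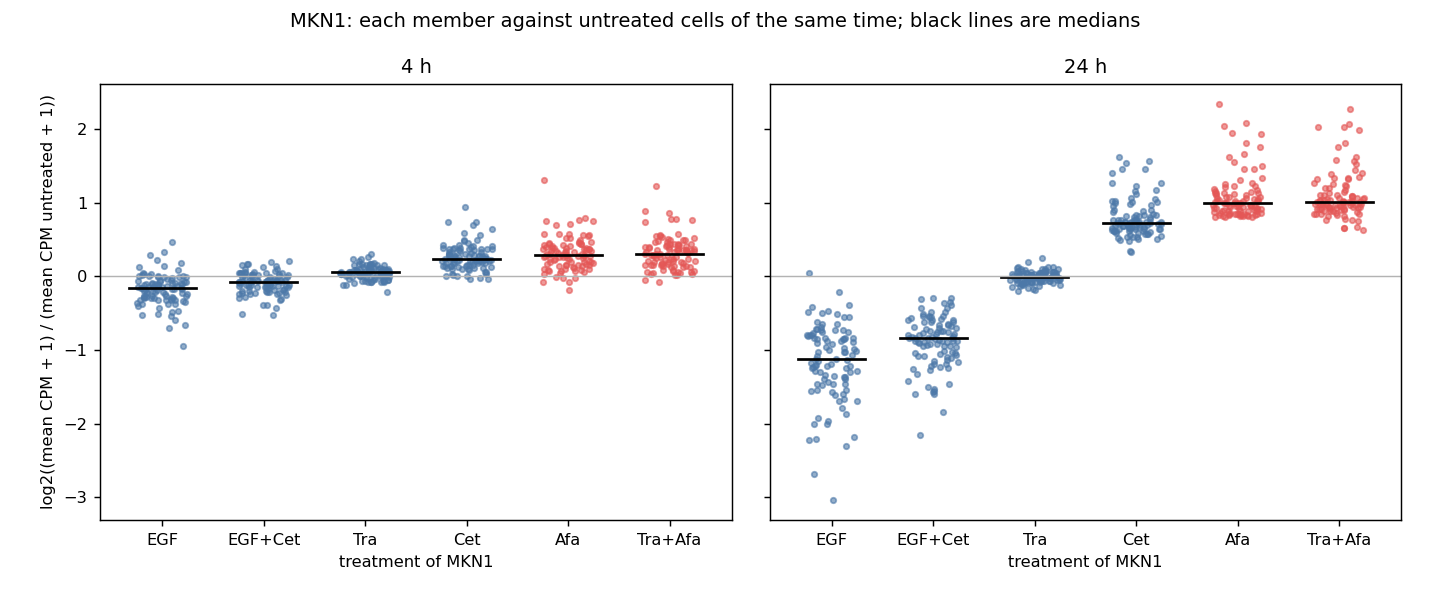
Each member in MKN1 as log2((mean CPM + 1)/(mean CPM untreated + 1)) (vertical axis) in each treatment at 4 h and 24 h, in red with afatinib and in blue without it, with black lines at the medians. At 24 h the medians are -1.12 with EGF, -0.84 with EGF+Cet, -0.01 with Tra, 0.72 with Cet, 0.99 with Afa (the contrast that chose the genes) and 1.01 with Tra+Afa, while at 4 h the points lie closer to 0.

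Hs746T, which did not enter the choice, had no called change in the fit without the replicate block. In Afa against untreated and in Tra+Afa against Tra at 4 h and 24 h, edgeR called 0 of 95 members and 0 of 18667 genes (background 0%), by either criterion, and DESeq2 called 0 members past both criteria. At an unadjusted p under 0.05 there were 4 and 1 members at 4 h (7.34% and 1.24% of all genes) and 2 and 3 at 24 h (1.77% and 1.02%). With the replicate block the adjusted p alone called 8 members higher and 7 lower for Afa at 4 h, where 10.3% and 8.29% of all genes were called. It called 1 and 3 for Afa at 24 h (0.171% and 0.541% of all genes), and 2 and 1 for Tra+Afa at 24 h (0.107% and 0.279%). Medians lay between -0.01 and 0.02 on the log2 scale, and relative to untreated cells no member reached 0.8 in any of the treatments of this line.

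Most members were nevertheless present in Hs746T. CCDC80 stood at 242, 218 and 190 CPM with Tra and 219, 198 and 174 CPM with Tra+Afa at 24 h, GBP2 at 24.0, 24.0 and 23.9 against 27.1, 23.9 and 22.5 CPM, and BMF at 10.5, 4.38 and 3.97 against 9.59, 4.42 and 3.69 CPM. The libraries of the groups overlapped for each of these. ALPG (at most 0.208 CPM in these libraries) and TMPRSS3 (at most 0.0587 CPM) were near the floor, where small changes were not detectable at this depth. GPNMB had the largest fitted change in Tra+Afa against Tra at 24 h, 0.64 ± 0.30 (edgeR adjusted p = 1.00). It went from 40.0, 26.3 and 28.5 to 64.0, 41.0 and 43.5 CPM. The replicate numbers pair these libraries, each Tra+Afa value was above the Tra value of its own number, and with the block the change was 0.63 ± 0.07 (edgeR adjusted p = 1.74e-06), and 0.52 ± 0.07 for Afa against untreated (adjusted p = 4.09e-05). With the block ZNF467, a zinc finger protein, was lower in both comparisons (by -0.47 ± 0.09, edgeR adjusted p = 0.00666, and -0.54 ± 0.10, adjusted p = 0.00202).

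The difference from Hs746T was tested as an interaction for Tra+Afa against Tra at 24 h. The change was larger than in Hs746T past both criteria for 37 members in MKN1 (0.999% of 22832 genes), 49 in MKN7 (3.18%) and 74 in N87 (10.8%), and by the adjusted p alone for 53 (2.1%), 59 (5.66%) and 78 (16.2%), or 87, 89 and 91 with the block (11.4%, 15.4% and 23.6%). Without replicate 3 the MKN1 count was 2 and without replicate 2 it was 18, and the MKN7 count was 27 and 28.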

How the data were processed

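RNA of the 132 libraries was poly(A)-selected and sequenced as directional paired-end libraries. According to the submitters' processing notes, the authors trimmed reads with Trim Galore and aligned them with STAR to hg38; the counter, its strand setting and the versions are not given in the sources used here. The deposited values are raw counts per Ensembl identifier (65217 identifiers, of which 8404, with 0.0422% of the counts, had no GENCODE entry). 98.3% of the counts fell on protein-coding genes, and mitochondrial identifiers were at 0. No replicate pair was identical or as close as counting noise.

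CPM and the choice of members were computed from library totals. Differences were tested with edgeR 4.0.16 in R 4.3.3 (TMM, filterByExpr at its count limits of 10 in a library and 15 in all, quasi-likelihood F test, Benjamini-Hochberg over all genes tested), with all libraries of a line in a fit, or all 132 for differences between lines. A member was called at an adjusted p under 0.05 and a log2 fold change past 1, or by the adjusted p alone. The SE is the log2 fold change divided by the square root of F. Over 28 contrasts the alternatives were library size alone, DESeq2 1.42.0, other filters, the compared groups alone, the replicate number as a block and each replicate left out. The procedures were tested on simulated data, in which DESeq2 called more unchanged genes than edgeR.

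Same-numbered libraries deviated together in every pair of treatments (correlation of deviations from group means of 0.261 or more), except at 24 h in MKN1, where 12 of 21 pairs did and Tra and Tra+Afa did not; the numbers come from the labels. Named genes are the 25 members ranked first by their smallest value over the lines, members in the fixed lists, those at the threshold, and the 3 largest and smallest changes per comparison; other names were chosen after their values were seen. The members, lists, role groups and tests were chosen with earlier results of these data known. The values of 1 member and of 1 listed gene are not reported here; both stay in the counts and medians.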

Additional observations from a re-analysis of the deposited data

Results flagged for a closer look

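The change with Tra+Afa against Tra differed between times or lines by a test of the difference itself in 9 comparisons. Between 24 h and 4 h, 13 members differed in MKN1, 15 in MKN7 and 45 in N87, all with the larger change at 24 h. Between lines at 24 h, 18 members differed between N87 and MKN1 and 19 between N87 and MKN7, all larger in N87, and 1 (GPNMB) differed between MKN7 and MKN1, larger in MKN1. Against Hs746T, 37 members differed in MKN1, 49 in MKN7 and 74 in N87, all larger than in Hs746T. The groups of 3 libraries are too small for a test of single libraries that stand apart.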

How the results depend on the processing

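The number of members was 61 with CPM scaled by TMM and 35 at a limit of 1.0, and 41 to 146 without 1 replicate. Past both criteria, DESeq2 gave 20 members for the difference between 24 h and 4 h in MKN1, 1 for Cet at 4 h, 2 for EGF+Cet against EGF at 24 h and 2 for MKN7 against MKN1. With no filter the last comparison gave 0 and EGF+Cet at 24 h gave 2. With the replicate block the difference between times gave 24 in MKN1 and 23 in MKN7, Cet at 4 h gave 1, EGF+Cet at 24 h gave 2, and MKN7 against MKN1 gave 5, of which 3 were higher in MKN7, so that its direction turned. In the 2 compared groups alone, Afa at 4 h in MKN1 gave 1. The cause of these shifts was not tested. Apart from the counts by the adjusted p given above, the block moved no other count of calls by over 1.5 times.

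Leaving out 1 replicate gave 26 to 63 members in MKN1 for Tra+Afa against Tra at 24 h, 0 to 2 for Afa and 0 to 1 for Tra+Afa at 4 h, 0 to 7 for the difference between times, 1 to 2 for EGF at 4 h, 0 to 1 for Cet at 4 h, 0 to 2 for EGF+Cet at 24 h and 10 to 23 for Cet against Tra. In MKN7 the ranges were 3 to 5 for Afa and 2 to 4 for Tra+Afa at 4 h and 6 to 9 for the difference between times. Between lines they were 10 to 22 for N87 against MKN1, 10 to 19 for N87 against MKN7, 0 to 1 for MKN7 against MKN1, and 2 to 41 for MKN1 and 27 to 51 for MKN7 against Hs746T. Of 249 recomputed counts of the comparisons, 206 stayed within 1.5 times of the reported count. These include counts of 0 that stayed at 0, as in Hs746T. Of 1465 values of single genes, all of them called past both criteria in the main fit, 1385 kept their direction and the call, 80 lost the call and none reversed. Genes not called in the main fit were not in this set, so gained calls could not be seen.

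Scaling by library size alone moved the median of all genes in Tra+Afa against Tra at 24 h to 0.16, 0.15 and 0.32 in MKN1, MKN7 and N87. The members called moved to 72, 74 and 90. The share of all genes called under this scaling is not given here, so these counts cannot be set against a background. With 3 libraries a group, small changes of those members that were near the floor in Hs746T were not detectable. With the replicate block some better expressed members passed the adjusted p in that line, as given above.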
